A study of Mus musculus with 8 samples.

Results

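The immediate early genes described here were Fos, Fosb, Jun, Junb, Jund, Egr1, Atf3, Ier2, Dusp1 and Klf6, 10 of the 55487 genes in the deposited count table. They were taken by gene symbol, not by a cut on measured values. The list was chosen with earlier results of these data known. By the labels, RNA was sequenced from the cells of MC38 tumors called the stromal vascular fraction, which are left after digestion of the tumor with collagenase at 37 °C and removal of GFP+ tumor cells by sorting, from 4 Bmal1+/+ and 4 Bmal1-/- mice. MC38 is a murine colorectal cancer line and was grown under the skin. Bmal1, whose gene symbol is Arntl, encodes a transcription factor of the circadian clock. The knockout was a germline deletion carried by all cells of the host, obtained from Bmal1+/- founders, while the tumor cells were not deleted, and the labels name no treatment. The sources used here do not give the age or sex of the mice or the time of day at collection. Nothing in the labels says whether samples of a label shared a litter or a culture, so p-values measure the spread between these libraries, which may be partly technical.

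Immediate early genes are transcribed within minutes of a stimulus, from promoters on which SRF, ELK and CREB family factors already sit, and they need no new protein synthesis. Growth factors, cytokines, stress and tissue handling all induce them through MAP kinases, calcium and cAMP. Their products are mostly transcription factors. Fos and Jun proteins pair through leucine zippers to form AP-1, and others, such as the phosphatase DUSP1, end the signal. In tumor stroma AP-1 is known for its part in wound and inflammatory programs of fibroblasts and macrophages.

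Positions are those of GENCODE M21 on GRCm38. Fos lies on chr12:85473890-85477273, Fosb on chr7:19302696-19310051, Jun on chr4:95049034-95052222 and Atf3 on chr1:191170296-191218039. Dusp1 is at chr17:26505590-26562128 and Klf6 at chr13:5861482-5870394. Jund at chr8:70698949-70700616, Ier2 at chr8:84661331-84662852 and Junb at chr8:84974484-84978718 share a chromosome. The sources used here do not state whether counting used strand, and exons of 4 of these genes overlap a gene on the other strand. Junos overlaps 232 of the 3189 exon bases of Jun, and it had 1 to 5 counts per library. The antisense gene Gm11175 overlaps 877 of 1668 exon bases of Jund, with 0 to 12 counts. Prdx2, a peroxiredoxin gene, overlaps 173 of 2301 exon bases of Junb, and Ergic1, which encodes a protein of the secretory pathway, 11 of 3311 exon bases of Dusp1. Without strand, reads of such pairs over the shared bases cannot be told apart.

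Promoter windows of 4 members are shown, those of the 3 genes past the study's criterion below and that of Dusp1, the member with a full cAMP response element. They are the 250 bases upstream of the RefSeq start of Jun (chr4:95052223-95052472, minus strand), Atf3 (chr1:191183334-191183583, minus strand), Dusp1 (chr17:26508473-26508722, minus strand) and Klf6 (chr13:5861239-5861488, plus strand) in GRCm38.p6, written 5′ to 3′ on the strand of the gene. For Atf3 and Dusp1 the RefSeq start lies inside the longer GENCODE gene, and for Klf6 it lies a few bases inside. Capitals mark every match on either strand to the cAMP response element CRE (TGACGTCA), its core TGACG, the CRE-like site TGACATCA, the AP-1 site TGAGTCA, the CArG box of SRF or the E-box CACGTG, the letters that BMAL1 and CLOCK bind. Each CRE also holds the core.
Jun: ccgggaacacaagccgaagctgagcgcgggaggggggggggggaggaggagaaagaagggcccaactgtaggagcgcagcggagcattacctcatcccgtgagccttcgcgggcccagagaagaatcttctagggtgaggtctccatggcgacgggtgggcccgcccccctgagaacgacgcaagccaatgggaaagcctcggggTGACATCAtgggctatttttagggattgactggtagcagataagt
Atf3: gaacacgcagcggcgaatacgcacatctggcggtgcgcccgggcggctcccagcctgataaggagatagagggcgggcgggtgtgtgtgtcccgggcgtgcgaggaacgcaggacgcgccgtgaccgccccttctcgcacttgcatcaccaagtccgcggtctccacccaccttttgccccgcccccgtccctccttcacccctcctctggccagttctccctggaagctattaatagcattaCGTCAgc
Dusp1: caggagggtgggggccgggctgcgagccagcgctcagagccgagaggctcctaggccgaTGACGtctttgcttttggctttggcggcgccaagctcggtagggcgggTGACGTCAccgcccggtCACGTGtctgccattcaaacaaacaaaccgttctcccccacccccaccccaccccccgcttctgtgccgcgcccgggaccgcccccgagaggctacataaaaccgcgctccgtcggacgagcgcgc
Klf6: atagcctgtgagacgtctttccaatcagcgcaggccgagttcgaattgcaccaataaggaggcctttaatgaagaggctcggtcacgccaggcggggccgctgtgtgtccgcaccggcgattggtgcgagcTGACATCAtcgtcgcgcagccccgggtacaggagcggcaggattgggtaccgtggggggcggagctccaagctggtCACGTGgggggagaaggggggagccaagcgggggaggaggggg
The Jun window held a CRE-like site at -45 to -38 from the start, and the Klf6 window held the same letters at -119 to -112. Dusp1 held a full CRE at -143 to -136, a further core at -191 to -187 and an E-box at -126 to -121. An E-box also stood at -43 to -38 of Klf6, and the core in the Atf3 window was on the other strand at -7 to -3.

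Windows of 8 of the 10 members were matched in the RefSeq table, and those of Egr1 and Ier2 were not. The full CRE was in 1 of the 8 windows, against 1.55% of 32851 promoter windows of the same length, and the core TGACG in 5 of 8 (Fos, Fosb, Junb, Atf3 and Dusp1) against 17.8%. The CRE-like site was in 2 of 8 against 2.93%, and the E-box in 2 of 8 against 6.02%. None of the 8 held the AP-1 site, found in 4.46% of all windows, or the CArG box, found in 1.47%. Sites farther upstream than 250 bases were not searched, nor was any sequence of Egr1 or Ier2, so these genes may hold such sites elsewhere. A match describes letters in the window, and no binding was measured.

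Library totals ran from 14054825 to 18449143 counts, so that 3 counts, used as the floor of detection, stood for 0.167 to 0.213 normalized CPM (counts scaled to a common library size after TMM correction). Floors cover counting error only. Before any comparison, the labels were checked against the targeted gene. Arntl was at 1.55 ± 0.814 CPM (SD, n = 4) in the Bmal1+/+ libraries and at 32.6 ± 2.00 CPM (SD, n = 4) in those labelled Bmal1-/-, with a log2 fold change of 4.38 (edgeR adjusted p = 6.4e-06). This is the reverse of a loss of the RNA, but counts over the whole gene do not show whether the deleted part is present. The values therefore do not settle whether the labels hold. The latter are called the libraries labelled Bmal1-/- throughout, and Bmal1+/+ likewise stands only for the label of the former. Each direction below follows the labels. Xist, the RNA of X inactivation, had 843.8 to 1094.9 CPM in Bmal1+/+ libraries and 0.142 to 0.749 CPM in the others. Genotype label and whatever sets Xist, such as the sex of the mice, thus cannot be told apart in any difference below. The markers of the stroma were present but low. Summed over their lists, 6 macrophage genes reached 376 to 456 CPM in Bmal1+/+ libraries and 169 to 292 CPM in the others, 5 endothelial genes 132 to 164 against 76.2 to 110 CPM, and 8 fibroblast genes 132 to 212 against 99.8 to 105 CPM, with Pdpn at 0 in all libraries. Hepatocyte markers were far higher, with 94044 to 106453 against 52110.0 to 65184 CPM over 8 genes, albumin (Alb) among them at 64318 to 71872 against 12744 to 18830 CPM. The fall of that sum came from Alb, since the other 7 genes summed to 29727 to 34581 CPM in Bmal1+/+ and to 35899 to 52439 CPM in the libraries labelled Bmal1-/-, and of the 8 genes 1 was lower and 3 were higher. With albumin this high and the stromal markers low, whether the libraries hold the labelled tissue is in doubt, and the levels below are those of the libraries as deposited. The library labelled Bmal1-/- replicate 4 stood apart in 10 acute-phase genes, with a sum of 49454 CPM against 4647 to 9420 CPM in the other 7 libraries. The share of mitochondrial counts was 6.48 to 8.63% in Bmal1+/+ and 4.22 to 5.35% in the libraries labelled Bmal1-/-.

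Atf3, Klf6, Jun and Jund were lower in the libraries labelled Bmal1-/-, and no member was called higher, though 3 had estimates above 0. Of the 10 genes, 9 had enough counts to be tested (Fosb did not), and 4 of these were lower and 0 higher by the quasi-likelihood test of edgeR over 14353 genes, with a threshold of 0.05 on the adjusted p. For comparison, 16.2% of all genes tested were lower and 14.9% higher by the same call. No member was higher at an unadjusted p below 0.05 in edgeR either, and DESeq2 and limma-voom each called 0 higher. The criterion that the study states, an absolute log2 fold change above 1 with an unadjusted p below 0.05, held for 3 members, Atf3, Klf6 and Jun, and for 14.1% of all genes. The groups of 4 libraries did not overlap for the same 4 genes that were called, all lower, and overlapped for the other 5 tested. Among all genes 16.8% had groups that did not overlap with the knockout label lower, and 16.7% with it higher. The median log2 fold change of the tested members was -0.43, against 0.02 over all genes. With the library labelled Bmal1-/- replicate 4 left out, 6 members were lower, Fos and Fosb being added. Fosb was tested in that fit because it passed the filter on low counts, through Bmal1+/+ libraries with 15, 57 and 27 counts. It was also called without Bmal1+/+ replicate 4 and without replicate 1 or 3 labelled Bmal1-/-. In each of these fits it again passed the filter only through Bmal1+/+ libraries, where its level was higher. The calls of Fosb therefore add no support for a difference.

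**Figure D1:**
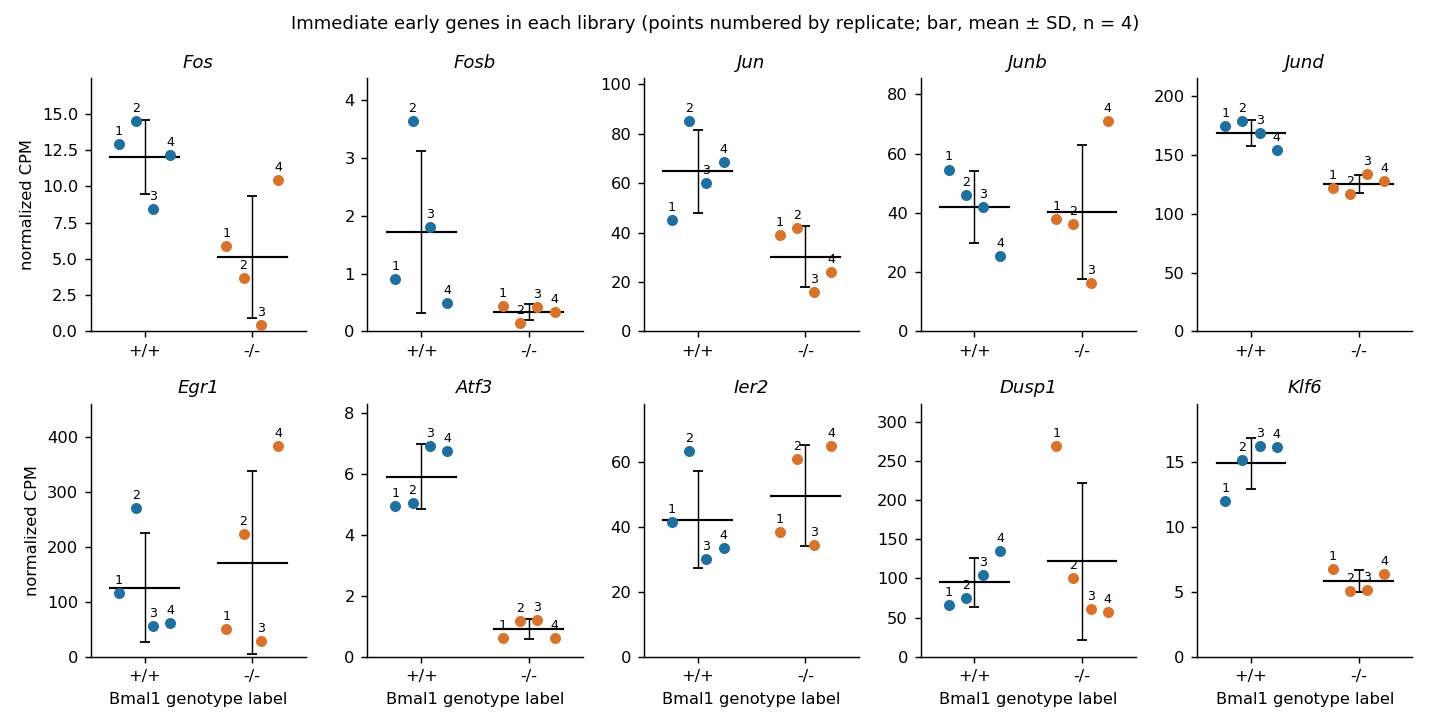
Normalized CPM (vertical axes, linear from 0) of the 10 immediate early genes in the Bmal1+/+ (blue) and labelled Bmal1-/- (orange) libraries. Each point is a library numbered by replicate, and the horizontal bar and whiskers are the mean and SD of 4. The groups were apart for Atf3, Klf6, Jun, Jund and the weakly counted Fosb, while Egr1, Dusp1 and Fos spread widely among the libraries labelled Bmal1-/-.

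Among the Fos family, Fos, the inducible leucine zipper partner of Jun, had 12.9, 14.5, 8.465 and 12.19 CPM in Bmal1+/+ replicates 1 to 4. It had 5.87, 3.67, 0.427 and 10.45 CPM in replicates 1 to 4 labelled Bmal1-/-, from 94, 53, 6 and 154 counts. Replicate 3 was close to the floor, and replicate 4 reached into the Bmal1+/+ range, so the groups overlapped. The mean was 12.03 ± 2.57 against 5.10 ± 4.21 CPM (SD, n = 4 each), a log2 fold change of -1.23 (SE 0.58, 95% interval -2.53 to 0.07, edgeR adjusted p = 0.14). The call turned on the library rich in acute-phase transcripts, since without it the log2 fold change was -1.84 and the edgeR adjusted p 0.031. The part of the acute-phase level in this result was not tested.

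Fosb, a close relative of Fos, was the least abundant member. It had 15, 57, 27 and 9 counts in the Bmal1+/+ libraries and 7, 2, 6 and 5 counts in those labelled Bmal1-/-, or 0.501 to 3.65 CPM against 0.139 to 0.437 CPM. Every Bmal1+/+ library was above every library of the other label, whose 4 values lie within a few counts of the floor. It did not pass the filter on low counts, except in 5 fits without 1 library, where it passed only through Bmal1+/+ libraries. In a fit with no such filter its log2 fold change was -2.31 (edgeR adjusted p = 0.034), and in the 5 fits without 1 library in which it was tested the log2 fold change lay between -2.63 and -2.06, with 1 of 5 (without the library labelled Bmal1-/- replicate 2) not called at an edgeR adjusted p of 0.06.

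In the Jun family, by point estimate, Jun was most reduced and Jund slightly, while Junb was not detectably different. Their 95% intervals overlapped, and the genes were not tested against each other. Jun, the main partner of Fos in AP-1 and a substrate of JNK, had 45.0, 85.2, 59.9 and 68.5 CPM in Bmal1+/+ replicates 1 to 4. The libraries labelled Bmal1-/- had 38.8, 41.9, 15.9 and 24.01 CPM. All 4 were below the lowest Bmal1+/+ library, although the gap between the nearest libraries was narrow. The mean fell from 64.7 ± 16.8 to 30.2 ± 12.3 CPM (SD, n = 4 each), to 46.7% of the Bmal1+/+ level by the fit (log2 fold change -1.10, SE 0.30, 95% interval -1.77 to -0.43, edgeR adjusted p = 0.02). Without Bmal1+/+ replicate 2, the library with the most Jun, the edgeR adjusted p was 0.057 and the log2 fold change -0.94. These are bulk samples, in which fewer cells that express a gene and less RNA per cell cannot be told apart. The summed macrophage, endothelial and fibroblast markers given above moved with the label in the same direction, and their part in the fall of Jun, Jund, Atf3 and Klf6 was not tested.

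Jund, the Jun family member that is expressed most steadily without a stimulus, had 174, 179, 168 and 154 CPM in Bmal1+/+ replicates 1 to 4 and 122, 117, 134 and 128 CPM in those labelled Bmal1-/-. It was the steadiest of the members and its groups were clearly apart. The mean of 169 ± 10.97 fell to 125 ± 7.38 CPM (SD, n = 4 each), or 74.2% of the Bmal1+/+ level (log2 fold change -0.43, SE 0.10, edgeR adjusted p = 0.0083). Junb, which in many cells opposes the growth-promoting action of Jun, had 54.7, 45.9, 41.9 and 25.5 CPM in Bmal1+/+ and 37.9, 36.2, 16.5 and 71.2 CPM in the libraries labelled Bmal1-/-. The latter group held both the lowest and the highest library of all 8. The log2 fold change of Junb was -0.05, and its 95% interval of -0.90 to 0.79 leaves room for a change of either sign (edgeR adjusted p = 0.93). Prdx2, the gene that overlaps Junb, was at 82.3 ± 4.92 against 75.5 ± 5.97 CPM (SD, n = 4 each; edgeR adjusted p = 0.35).

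Set per length, Jund made up most of the Jun family transcripts. In the deposited FPKM the 3 genes summed to 124 to 154 in Bmal1+/+ and to 94.4 to 121 in the libraries labelled Bmal1-/-, so the summed FPKM did not overlap between the groups. The share of Jund in that sum was 67.3 to 72.1% in Bmal1+/+ libraries. Among those labelled Bmal1-/- it ran from 62.0% in replicate 4, where Junb made up 31.9%, to 85.1% in replicate 3, where Junb made up 9.66% and Jun 5.27%. Fos family FPKM, summed over Fos, Fosb, Fosl1 and Fosl2, were 5.11 to 6.57 in Bmal1+/+ and 0.9904 to 4.70 in the other libraries, and Fosl1 was at 0 in all 8. The ratio of Jun family to Fos family FPKM was 23.0 to 28.1 in Bmal1+/+ libraries, and 35.6, 45.8, 95.3 and 25.7 in replicates 1 to 4 labelled Bmal1-/-. Replicate 4 thus lay within the Bmal1+/+ range and the other 3 above it. Levels of these shares and ratios rest on the lengths implied by the FPKM. Those lengths were 1.61 times the GENCODE exon length for Fos, 2.65 for Fosb, 0.786 for Junb and 1 for Jun and Jund.

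**Figure D2:**
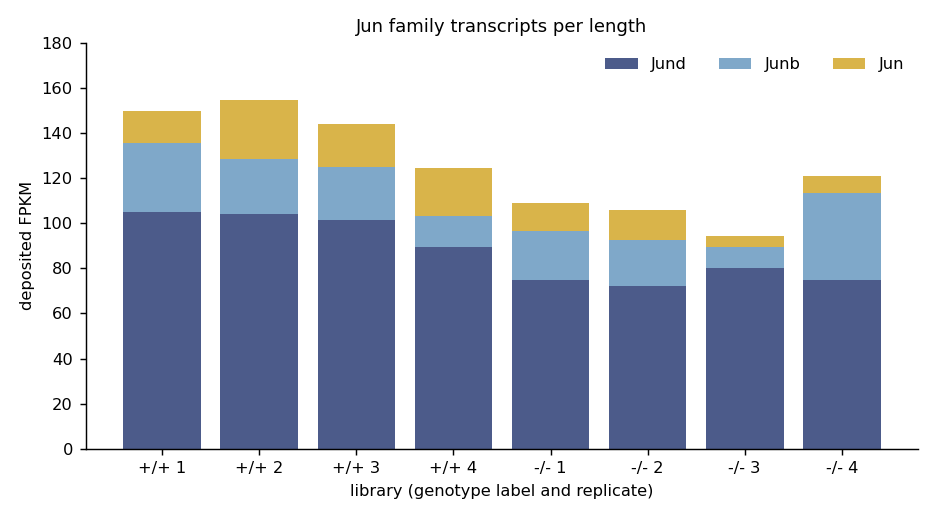
Deposited FPKM (vertical axis, from 0) of Jund, Junb and Jun stacked for each of the 8 libraries, named by genotype label and replicate. The sum was 124 to 154 FPKM in the Bmal1+/+ and 94.4 to 121 FPKM in the labelled Bmal1-/- libraries, and Jund was the largest part of it in all 8.

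Atf3 showed the largest difference of the members. It encodes a leucine zipper factor of the ATF and CREB family that is induced by stress and pairs with Jun proteins. The Bmal1+/+ libraries had 4.94, 5.06, 6.92 and 6.74 CPM, and those labelled Bmal1-/- had 0.6245, 1.177, 1.21 and 0.6105 CPM. These values came from 82, 79, 103 and 121 counts against only 10, 17, 17 and 9 counts. Atf3 thus passed the filter on low counts through the Bmal1+/+ libraries. Each library labelled Bmal1-/- held less than any Bmal1+/+ library, with a wide gap between the groups. From 5.91 ± 1.06 to 0.905 ± 0.333 CPM (SD, n = 4 each), the fall was 6.52-fold by the fit (log2 fold change -2.70, SE 0.28, 95% interval -3.32 to -2.09, edgeR adjusted p = 1.2e-04). In the 8 fits that each left out 1 library, the log2 fold change stayed between -2.89 and -2.55.

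Klf6, a zinc finger factor of the Krüppel-like family that responds to injury, had the second largest fall among the 9 members tested. Its values were 12.04, 15.2, 16.3 and 16.2 CPM in Bmal1+/+ replicates 1 to 4 and 6.74, 5.06, 5.12 and 6.38 CPM in the libraries labelled Bmal1-/-. Both groups were tight and apart. Klf6 was 2.55-fold lower, with means of 14.9 ± 1.97 and 5.83 ± 0.863 CPM (SD, n = 4 each; log2 fold change -1.35, SE 0.16, 95% interval -1.70 to -1.01, edgeR adjusted p = 2.2e-04). The same sign and call were found in all 17 alternative fits of Klf6 and Jund and in the 16 that tested Atf3.

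Egr1 and Ier2 did not differ detectably between the labels. Egr1, a zinc finger factor that SRF and ELK proteins switch on, had 115, 269.7, 56.4 and 62.0 CPM in Bmal1+/+ replicates 1 to 4. Replicates 1 to 4 labelled Bmal1-/- had 49.7, 223, 29.5 and 383 CPM, so each group held libraries of both low and high level. The log2 fold change was 0.44 (SE 0.77, 95% interval -1.28 to 2.17, edgeR adjusted p = 0.69), and its sign was set by single libraries, being 1.14 without Bmal1+/+ replicate 2 and -0.32 without the library labelled Bmal1-/- replicate 4. Ier2, which encodes a small nuclear protein, had 41.7, 63.6, 30.3 and 33.6 CPM in Bmal1+/+ and 38.4, 61.1, 34.6 and 65.1 CPM in the libraries labelled Bmal1-/-. Here too the groups overlapped along most of their range (log2 fold change 0.24, 95% interval -0.37 to 0.84, edgeR adjusted p = 0.55).

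Dusp1, the dual-specificity phosphatase that switches off p38, JNK and ERK, had 65.6, 74.8, 105 and 135 CPM in Bmal1+/+ replicates 1 to 4. Among the libraries labelled Bmal1-/- it had 269.3, 100.1, 61.1 and 57.8 CPM. Replicate 1 of that label was the highest of all 8 libraries by a wide margin, and replicates 3 and 4 were the lowest. Dusp1 had a log2 fold change of 0.36 (95% interval -0.69 to 1.41, edgeR adjusted p = 0.59), and of -0.37 without replicate 1 labelled Bmal1-/-. Ergic1, the gene on its other strand, was higher in the libraries labelled Bmal1-/-, at 86.0 to 99.99 against 52.9 to 63.1 CPM (edgeR adjusted p = 8.1e-04), and it shares only the 11 bases given above.

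**Figure D3:**
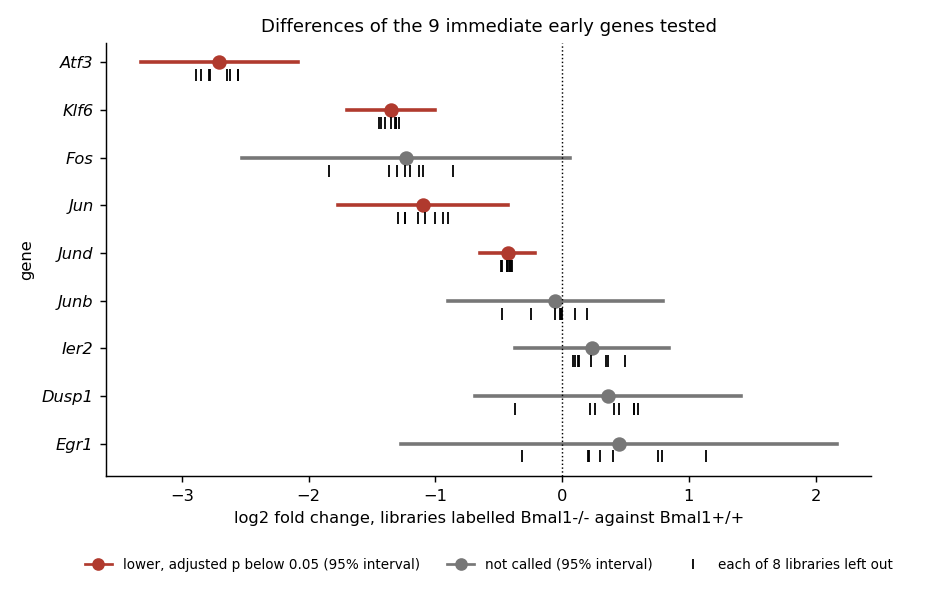
Log2 fold changes (horizontal axis) of the 9 tested immediate early genes, as points with 95% intervals, red where lower at an adjusted p below 0.05 and grey where not called, with the 8 values found on leaving out each library as black ticks. The ticks stay on the negative side for Atf3, Klf6, Fos, Jun and Jund and cross 0 for Junb, Dusp1 and Egr1.

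The members also differed in their spread between libraries of the same label. The biological coefficient of variation that edgeR fitted had a median of 0.302 over the 9 tested members against 0.184 over all genes, and 7 of the 9 were above the latter. It was 0.724 for Egr1, 0.600 for Fos and 0.461 for Dusp1, against 0.137 for Jund and 0.161 for Klf6. Only 0.676% of tested genes had a higher value than Egr1, and 86.4% had a higher value than Jund. Within the libraries labelled Bmal1-/-, the highest over the lowest library was 24.5-fold for Fos, 13.01-fold for Egr1, 4.66-fold for Dusp1 and 4.31-fold for Junb, where the median gene had 1.48-fold. In Bmal1+/+ libraries the same ratio was 1.72-fold for Fos, 4.78-fold for Egr1, 2.05-fold for Dusp1 and 2.14-fold for Junb, with a median of 1.41-fold. Whether the spread itself differed between the labels was not tested.

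The same few libraries were extreme for several members. Bmal1+/+ replicate 2 was the highest of its group for 6 of the 10 members, Fos, Fosb, Jun, Jund, Egr1 and Ier2, and the lowest for 0. The library labelled Bmal1-/- replicate 3 was the lowest of its group for Fos, Jun, Junb, Egr1 and Ier2, 5 of the 10, and the highest for Jund and Atf3. Replicate 4 of that label was the highest for 4, Fos, Junb, Egr1 and Ier2, but the lowest for Atf3 and Dusp1. Replicate 1 of that label, with the most Dusp1, also had the most Klf6 and Fosb of its group. On the log2 scale, replicate 3 labelled Bmal1-/- deviated from the mean of its label by -2.13 for Fos, -1.83 for Egr1 and -1.09 for Junb. Replicate 4 stood 1.43, 1.85 and 0.98 above that mean for the same 3 genes.

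**Figure D4:**
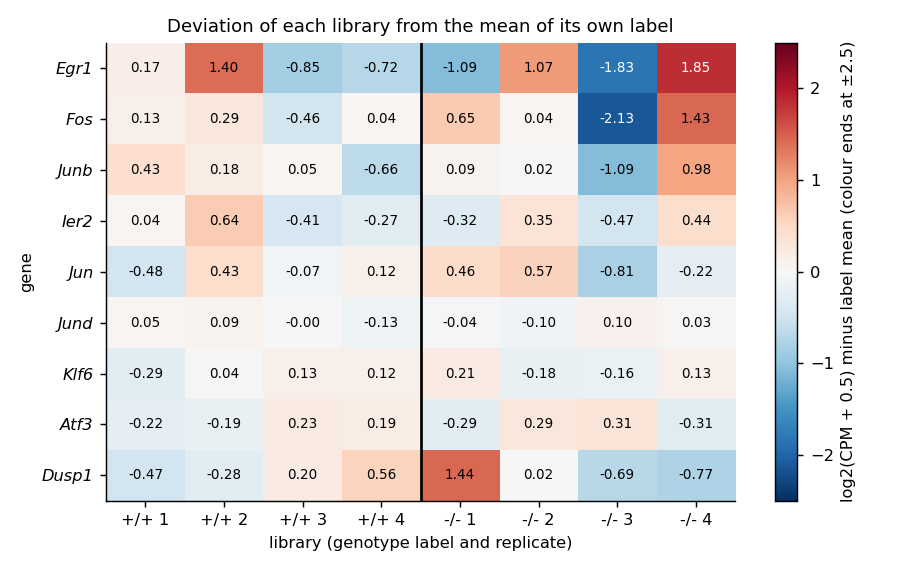
Deviation of each library from the mean of its own label, as log2(CPM + 0.5), for the 9 tested members (rows) in the 8 libraries (columns), red above and blue below the mean. Egr1, Fos and Junb are blue together in the library labelled Bmal1-/- replicate 3 and red together in replicate 4, whereas Dusp1 is red in replicate 1, at 1.44, and Jund is near 0 throughout.

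In order of level per length, the deposited FPKM of Bmal1+/+ libraries ran from Jund at 89.6 to 105 through Ier2 at 27.4 ± 9.29, Junb at 23.0 ± 6.92, Jun at 20.0 ± 4.85, Egr1 at 16.4 ± 12.7 and Dusp1 at 15.4 ± 4.95 (SD, n = 4). Fos at 3.13 ± 0.636, Klf6 at 2.71 ± 0.344, Atf3 at 2.28 ± 0.417 and Fosb at 0.102 ± 0.0818 followed. Ranges of neighbours in this order were apart only after Jund, Dusp1 and Atf3, so the 5 genes from Ier2 to Dusp1 were not separated, nor were Fos, Klf6 and Atf3. Among the libraries labelled Bmal1-/- the order was Jund at 75.6, Ier2 at 32.9, Egr1 at 22.8, Junb at 22.4, Dusp1 at 20.3, Jun at 9.58, Fos at 1.35, Klf6 at 1.08, Atf3 at 0.357 and Fosb at 0.0204 FPKM. There the neighbours were apart after Jund, Jun, Klf6 and Atf3. Lengths implied by these FPKM were 1.84 times the GENCODE exon length for Dusp1, 1.68 for Egr1, 1.61 for Fos, 2.65 for Fosb and 0.786 for Junb. Over GENCODE lengths instead, Dusp1 came second in the Bmal1+/+ libraries at 28.7 CPM per kilobase and Egr1 second in those labelled Bmal1-/- at 38.2, while Jund stayed first and Fos, Klf6, Atf3 and Fosb kept the last places in both.

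Among other immediate early genes, more were called lower than higher. Of 40 genes in that list 35 were tested, and 12 were lower and 4 higher at an edgeR adjusted p below 0.05. Their median log2 fold change was -0.15. Over all genes tested 16.2% were lower and 14.9% higher, and the 4 higher genes did not exceed that share. Egr2 and Npas4 had no count in any library. Gadd45b, a stress sensor that binds MAP kinase kinases, fell most, from 13.4–41.5 CPM in Bmal1+/+ to 0.277–2.498 CPM in the libraries labelled Bmal1-/- (log2 fold change -4.60, edgeR adjusted p = 1.9e-04). Klf4, a Krüppel-like factor, fell from 7.57–11.8 CPM to 0.712–1.08 CPM (log2 fold change -3.32, edgeR adjusted p = 8.6e-06). Nr4a3, an orphan nuclear receptor, fell from 0.896–1.95 CPM to 0–0.277 CPM, that is to 4 counts or fewer, around the floor (edgeR adjusted p = 0.0025).

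Its relative Nr4a1 rose, with 11.5 to 21.6 CPM in Bmal1+/+ and 104, 33.0, 41.0 and 13.4 CPM in replicates 1 to 4 labelled Bmal1-/- (log2 fold change 1.61, edgeR adjusted p = 0.038), and the groups overlapped through replicate 4. Gadd45g rose from 4.82–55.1 CPM to 67.6–193 CPM (log2 fold change 1.74, edgeR adjusted p = 0.048). Ccn1, a matricellular protein gene, had 3.71 to 6.18 against 4.68 to 12.9 CPM (log2 fold change 0.92, edgeR adjusted p = 0.04). These rises were close to the threshold, and the number of higher genes in the list was 1 without Bmal1+/+ replicate 2 or 4 and 2 without replicate 1, 2 or 3 labelled Bmal1-/-. The number of lower genes was 12 to 14 on leaving out any 1 library.

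Among partners of AP-1 and CREB, 4 of 23 tested genes were lower and 4 higher, with a median log2 fold change of -0.01. These shares were near those of all genes tested, 16.2% lower and 14.9% higher. The count of higher genes was 2 or 3 without any 1 library, being 2 without any of the Bmal1+/+ replicates or without replicate 1 labelled Bmal1-/-. Fosl2, a further Fos family gene, fell from 25.8–34.9 CPM to 9.89–23.5 CPM (log2 fold change -0.94, edgeR adjusted p = 0.011). Jdp2, a repressor that pairs with Jun, fell from 5.18–7.66 CPM to 1.56–2.69 CPM (log2 fold change -1.47, edgeR adjusted p = 0.001), and Maf, a large leucine zipper factor, from 68.3–75.0 CPM to 32.4–49.0 CPM (edgeR adjusted p = 9.3e-04). Atf5, a stress-response factor, rose from 119–191 CPM to 303–486 CPM (log2 fold change 1.33, edgeR adjusted p = 0.0011). Creb1, which binds the CRE, rose from 6.51–11.9 CPM to 11.5–24.3 CPM (edgeR adjusted p = 0.046), its groups overlapping, and its coactivator gene Crtc3 from 9.22–11.1 CPM to 16.01–18.45 CPM (edgeR adjusted p = 6.7e-04).

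Upstream, in the list of MAP kinases and SRF cofactors, 8 of 34 tested genes were lower and 3 higher, with a median of -0.07, and the count of lower genes was 4 without Bmal1+/+ replicate 1 or 4 and 5 without Bmal1+/+ replicate 2. The lowest were Nras at -1.34, Rps6ka1, a kinase that ERK activates, at -1.22 and Mapk11, a p38 kinase, at -1.13 on the log2 scale. Egfr had the highest log2 fold change at 1.65 (106 to 264 against 271 to 979.7 CPM, edgeR adjusted p = 0.016), and Nab2, a corepressor of EGR proteins, was at 0.86. Over all genes tested, 16.2% were lower and 14.9% higher, the shares to set beside this list and the next. Of 16 tested phosphatases and inhibitors of MAP kinases, Dusp1 not among them, 7 were lower and 0 higher, with a median of -0.33. At an unadjusted p below 0.05 edgeR gave 1 higher, as did the adjusted p of DESeq2, of limma-voom, of edgeR's likelihood ratio test and of the fits without Bmal1+/+ replicate 1, 2 or 3.

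Dusp5, a nuclear ERK phosphatase, fell from 3.01–3.67 CPM to 0.498–1.499 CPM (log2 fold change -1.89, edgeR adjusted p = 0.0016). Spry4, an inhibitor of receptor tyrosine kinase signaling, fell from 28.7–48.7 CPM to 5.83–18.36 CPM (log2 fold change -1.53, edgeR adjusted p = 0.0078). Dusp8, a JNK phosphatase, had 1.22 to 2.49 against 0 to 1.15 CPM (log2 fold change -1.97, edgeR adjusted p = 0.045). Summed over all 17 genes of the list, the level was 324 to 338 CPM in Bmal1+/+ and 209 to 234 CPM in the other libraries. The values of Dusp1 itself overlapped between the groups, as given above.

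Genes of the NF-κB pathway, many of which NF-κB itself induces, gave 6 lower and 1 higher of 15 tested, with a median of -0.46. The shares over all genes tested, also for the heat shock genes below, were 16.2% lower and 14.9% higher. In the NF-κB list the count of lower genes was 3 without Bmal1+/+ replicate 2 or without replicate 2 labelled Bmal1-/-. Il1b, the interleukin 1 beta gene, fell from 3.07–7.59 CPM to 0.854–2.17 CPM (log2 fold change -1.96, edgeR adjusted p = 0.0031). Nfkbiz and Relb followed at -1.60 and -1.40 on the log2 scale, and Nfkbib rose by 0.40. Heat shock genes, which are induced by protein damage, gave 5 lower and 0 higher of 12, with a median of -0.48, and none was higher at an unadjusted p below 0.05 in edgeR or by DESeq2 or limma-voom. Dnajb1 at -0.70, Hsph1 at -0.69 and Bag3 at -0.58 were the lowest on the log2 scale. The strongly inducible Hspa1a and Hspa1b were at 2.78 to 7.33 and 22.9 to 49.7 CPM in the libraries labelled Bmal1-/-, against 2.95 to 6.85 and 34.4 to 62.6 CPM in Bmal1+/+, and were not called (edgeR adjusted p = 0.98 and 0.18).

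**Figure D5:**
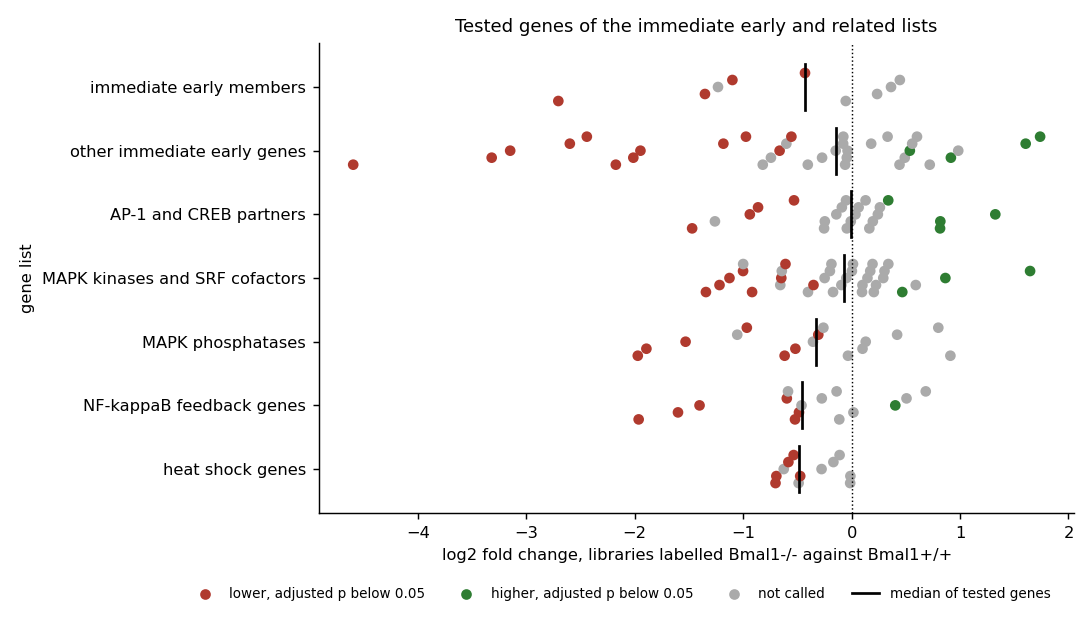
Log2 fold changes (horizontal axis) of the tested genes of the 10 members and of 6 related lists (rows), red where lower and green where higher at an adjusted p below 0.05, grey where not called, with the median of each list as a black line. The lowest point is Gadd45b at -4.60, and the highest is Gadd45g at 1.74, both in the list of other immediate early genes.

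Stromal markers moved beside these lists. For scale, 16.2% of all genes tested were lower and 14.9% higher. All 6 macrophage genes were lower, with a median log2 fold change of -1.07, as were 4 of 5 endothelial genes with a median of -0.64 and 4 of 6 tested fibroblast genes with a median of -0.73, and 0 in each list were higher (0 also at an unadjusted p below 0.05 in edgeR, and by DESeq2 and limma-voom). The log2 fold change of Jun, at -1.10, was near that of the macrophage genes, that of Jund, at -0.43, was smaller than all 3 medians, and those of Klf6, at -1.35, and Atf3, at -2.70, were below the lowest macrophage gene, Adgre1 at -1.31. Neutrophil genes summed to 44.4 CPM in the library labelled Bmal1-/- replicate 4 and to 2.63 to 10.6 CPM in the other 7, and T and B cell markers summed to 1.36 to 3.497 and 1.56 to 2.82 CPM. The part of cell makeup in any member's level was not tested.

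Most like the mean standardized profile of the tested members over the 8 libraries, out of 8159 genes whose mean was 10 CPM or more, were Sptbn1, Gm5182, Galnt11, Dmd and Dennd6a. Likeness was the root mean square distance between standardized log2 CPM, which was 0.161 for Sptbn1, a spectrin gene, and 0.197 for Dennd6a. Among the members themselves Fos was nearest to their own mean profile, at 0.332, then Jun at 0.495 and Klf6 at 0.653, and Dusp1 was farthest at 1.39. All 5 genes had their lowest level in the library labelled Bmal1-/- replicate 3, where the mean standardized level of the members was -2.19, and their highest in Bmal1+/+ replicate 2, where it was 1.43. The 8 points share label and library, so this describes the profile only.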

How the data were processed

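RNA-seq of 8 samples labelled as stromal vascular fraction was used, 4 per genotype label, grouped by label and numbered as described by the submitters. The library described as replicate 4 of the knockout label is titled KO6. By the paper's methods, HISAT2 aligned the read pairs to GRCm38 and StringTie gave a count for each gene. The authors deposited these raw counts without scaling, and beside them FPKM, used here only to set levels of different genes side by side. The submitters' processing notes name CASAVA 1.8 and TopHat2 2.0.6, so the aligner is not settled, and strand use in counting is not given in the sources used here. The series text speaks of arrays, although the values are sequencing counts. Gene symbols and coordinates came from GENCODE M21 on GRCm38, which matched 99.4% of 55487 identifiers.

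The counts of 14353 genes that passed filterByExpr were scaled by TMM and tested by quasi-likelihood in edgeR 4.0.16 (R 4.3.3), with a prior count of 0.125, with Benjamini-Hochberg adjustment and a threshold of 0.05. The standard error is the log2 fold change over the square root of F, and the common dispersion was 0.0506. Totals were 14054825 to 18449143 counts. Libraries of the same label were not duplicates (chi-square per degree of freedom at least 18). The steps were tested on simulated data. Alternatives were DESeq2 1.42.0, limma-voom (limma 3.58.1), the likelihood ratio test, other scalings, filters and prior count, each library left out, and the replicate number as a block. Counts of the related lists under these alternatives, and levels over GENCODE lengths, were added after the data were seen.

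The members and gene lists were chosen with earlier results of these data known. Named beside the members are, of each related list, at most the 3 lowest and 3 highest genes with adjusted p below 0.05, the 5 genes nearest in profile and Arntl. Hspa1a, Hspa1b, Adgre1, Alb, Xist, Fosl1, overlapping genes and genes at 0 were named after their values were seen. A value that this rule would name is not reported here. Promoter letters are from RefSeq (GRCm38.p6).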

Additional observations from a re-analysis of the deposited data

Results flagged for a closer look

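Among 38 genes (the members and the genes named from the lists), 76 groups of 4 libraries were examined for a library far from the rest, and about 1 in 20 such groups is marked by chance. 2 were found, both among the libraries labelled Bmal1-/-. Jdp2 was at 1.56 CPM in replicate 4, the library with the high acute-phase sum, and at 2.56 to 2.69 CPM in the other 3, a gap of 0.890 of the range. Mapk11 was at 0.312 CPM in replicate 1 and at 0.882 to 0.925 CPM in the others, a gap of 0.929 of the range. The value of replicate 1 lay within a few counts of the floor.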

How the results depend on the processing

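Atf3, Klf6 and Jund kept their direction and call in every alternative that tested them, and Jun in all but 1 of 17, the fit without Bmal1+/+ replicate 2. A minimum of 10 counts in every library left Fos and Atf3 untested. Estimates near 0 changed sign. Egr1 was at -0.064 with the replicate number as a block, and on leaving out 1 library it ran from -0.32 to 1.14, Junb from -0.47 to 0.19 and Dusp1 from -0.37 to 0.60. The count of other immediate early genes called higher was 2 with limma-voom, 1 with no filter on low counts and 1 to 4 on leaving out 1 library. Genes past the study's criterion were 1250 lower and 776 higher, against 1880 lower and 1316 higher with no filter, which tests more genes, and 828 lower with at least 10 counts in every library, which tests fewer. The block of replicate numbers left 4 members lower and 0 higher and changed no member's call, and over all genes gave 2064 lower and 1809 higher. Libraries of the same described number did not deviate together, with correlations of -0.11, 0.06, 0.03 and 0.03. Of 8 libraries, 2 correlated best with their own number. The last of these pairs holds the library titled KO6, whose title carries another number. The numbers were therefore not taken to pair samples. With 4 libraries per label, differences as small as that of Jund can be seen only in genes that vary little.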
